A study of Mus musculus with 6 samples.

Results

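The Iroquois homeobox family has 6 genes in the mouse, Irx1 to Irx6, which lie in 2 clusters of 3, Irx1, Irx2 and Irx4 on chromosome 13 and Irx3, Irx5 and Irx6 on chromosome 8. They were looked up in the deposited tables by gene identifier. Of the 6 genes, 4 were among the 14162 genes of the tables, namely Irx1 (ENSMUSG00000060969), Irx2 (ENSMUSG00000001504), Irx3 (ENSMUSG00000031734) and Irx5 (ENSMUSG00000031737). Irx4 and Irx6 were not analysed here. The RNA came from mouse lungs at stage E12.5, when the lung is a branching epithelial tree inside mesenchyme. The libraries fell into 3 labelled ShhCre-Dnmt1KO, here Dnmt1KO, and 3 from wild-type littermates, here WT. ShhCre drives recombination in the endoderm, from which the airway epithelium forms, and Dnmt1 encodes the maintenance DNA methyltransferase. Because Cre is named for the Dnmt1KO libraries alone, effects of the Cre allele and of losing Dnmt1 cannot be told apart. Whether libraries of a group came from separate embryos is not stated. Dnmt1KO replicate 1 held 3 reads over 4 genes of the Y chromosome, against 4301 and 4780 in replicates 2 and 3. It therefore did not come from the same embryo as either. The WT libraries held 4155 to 5207 such reads, so the groups also differed in sex make-up. The p-values here reflect spread among these samples, which for the other libraries may be technical.

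Iroquois genes encode transcription factors with a homeodomain of the TALE class, in which an extra loop separates helices of the DNA-binding domain. The genes of a cluster are often expressed together and can share distant enhancers, and in rodents Iroquois genes are active in the epithelium of the branching lung. In other organs of the mouse, Irx3 and Irx5 act in limb and heart development and Irx4 marks the ventricles of the heart.

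The part of the messenger RNA that defines the family is the homeobox, 63 codons long here, and it is shown because it bears on whether reads of one member could be counted for another. The sequences are those of GENCODE M21 on GRCm38, at chr13:71959995-71960183 (minus strand) for Irx1, chr13:72630661-72630849 (plus strand) for Irx2, chr8:91800499-91800687 (minus strand) for Irx3 and chr8:92359624-92359812 (plus strand) for Irx5. Each lies within a single coding exon. Capitals mark bases that differ from Irx1.
Irx1: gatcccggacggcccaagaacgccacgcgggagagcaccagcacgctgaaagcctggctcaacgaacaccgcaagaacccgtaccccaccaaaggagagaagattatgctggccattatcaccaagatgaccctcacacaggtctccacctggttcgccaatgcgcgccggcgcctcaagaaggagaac
Irx2: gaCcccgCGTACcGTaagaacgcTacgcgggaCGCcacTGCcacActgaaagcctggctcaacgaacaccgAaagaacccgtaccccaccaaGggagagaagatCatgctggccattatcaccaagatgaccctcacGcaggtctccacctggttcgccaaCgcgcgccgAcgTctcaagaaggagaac
Irx3: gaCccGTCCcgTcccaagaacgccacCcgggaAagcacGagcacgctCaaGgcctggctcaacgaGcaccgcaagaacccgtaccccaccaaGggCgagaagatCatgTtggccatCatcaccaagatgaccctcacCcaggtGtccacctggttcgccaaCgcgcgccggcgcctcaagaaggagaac
Irx5: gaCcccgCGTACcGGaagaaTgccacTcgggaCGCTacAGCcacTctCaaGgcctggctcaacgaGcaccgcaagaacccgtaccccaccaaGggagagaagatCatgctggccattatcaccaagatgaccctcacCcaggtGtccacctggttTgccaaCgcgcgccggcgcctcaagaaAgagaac

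Within the homeobox, 152 of 189 bases were the same in all 4 genes. Across the clusters, Irx2 and Irx5 had 172 of 189 bases in common and encoded the same residue at all 63 codons, and Irx1 and Irx3 had 169 bases in common and the same residue at 62 codons. Within a cluster, Irx1 and Irx2 shared 166 bases and 57 residues, as did Irx3 and Irx5. Of all stretches of 50 bases in the annotated transcripts, none of the 2585 from Irx1 occurred in another gene on either strand, against 16 of 3324 from Irx2, 17 of 3078 from Irx5 and 115 of 2762 from Irx3. For Irx3, 40 of these occurred in another Iroquois gene and the rest in Irx3os, an antisense gene that was not analysed here. The strand setting of the authors' counting is not given in the sources used here, so reads of that antisense gene cannot be told apart from reads of Irx3 where they overlap.

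Dnmt1 itself was covered by 8723, 8565 and 8388 reads for Dnmt1KO and by 13466, 10786 and 12602 reads for WT. On the deposited log2 scale it averaged 15.43 ± 0.13 for Dnmt1KO and 15.74 ± 0.02 for WT (SD, 3 libraries per group). All Dnmt1KO libraries were below all WT libraries, but the difference of -0.31 ± 0.09 (SE) was not past the threshold of 0.05 in limma (adjusted p = 0.507, Benjamini-Hochberg over all genes, as for every adjusted p here). The value covers the whole gene and all cells of the lung. Recovered reads totalled 18192629 to 21046831 per Dnmt1KO library and 20599736 to 25597662 per WT library.

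Irx1 had the largest difference of the 4. It had 614, 662 and 932 reads in Dnmt1KO replicates 1, 2 and 3, against 1840, 1683 and 1380 reads in WT replicates 1, 2 and 3. On the deposited log2 scale, which holds a scaling constant for each library, these were 11.75, 11.71 and 12.14 in Dnmt1KO against 12.85, 13.06 and 12.57 in WT. All 3 Dnmt1KO libraries lay below all 3 WT libraries, with a gap of 0.43 between the highest Dnmt1KO and the lowest WT value. The log2 fold change was -0.96 ± 0.15 (SE), with a 95% interval of -1.31 to -0.60, so that the mean level in Dnmt1KO was 51.5% of that in WT. Irx1 ranked 3 by p among genes with a negative fold change, and just missed limma's threshold of 0.05 after adjustment over all genes (adjusted p = 0.0589). Over the 15 alternative fits described below, its limma adjusted p ran from 0.022 to 0.313. It was 0.281 with the lowest 25% of genes removed.

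Irx2, the neighbour of Irx1, was by far the weakest of the 4 genes. Reads numbered 43, 38 and 69 for Dnmt1KO, against 117, 98 and 92 for WT. Its log2 values were 7.93, 7.61 and 8.39 in Dnmt1KO against 8.88, 8.96 and 8.67 in WT, again without overlap, with a gap of 0.28. Counting error alone amounts to 16.2% (1 SD) at its lowest Dnmt1KO count and 10.4% at its lowest WT count. The log2 fold change of -0.86 ± 0.25 (SE, 95% interval -1.44 to -0.28) came to 55.1% of the WT level, with limma adjusted p = 0.533.

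Irx3 opens the second cluster. It had 775, 708 and 1460 reads in Dnmt1KO, against 1860, 1964 and 1632 reads in WT. The log2 values were 12.08, 11.81 and 12.79 in Dnmt1KO against 12.86, 13.28 and 12.81 in WT. Replicates 1 and 2 of Dnmt1KO were well below WT, while replicate 3 lay 0.026 below the lowest WT library, within the WT spread of 0.26 (SD). The log2 fold change was -0.76 ± 0.24 (SE, 95% interval -1.32 to -0.20), or 59.1% of the WT level, with limma adjusted p = 0.691.

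Irx5 was read 338, 381 and 709 times in the Dnmt1KO libraries, against 780, 789 and 797 times in the WT libraries. The log2 values were 10.89, 10.92 and 11.74 in Dnmt1KO against 11.61, 11.96 and 11.78 in WT. Here the groups overlapped, since Dnmt1KO replicate 3 exceeded WT replicate 1 by 0.14. The log2 fold change was -0.60 ± 0.22 (SE, 95% interval -1.11 to -0.088), or 65.9% of the WT level, with limma adjusted p = 0.886.

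**Figure D1:**
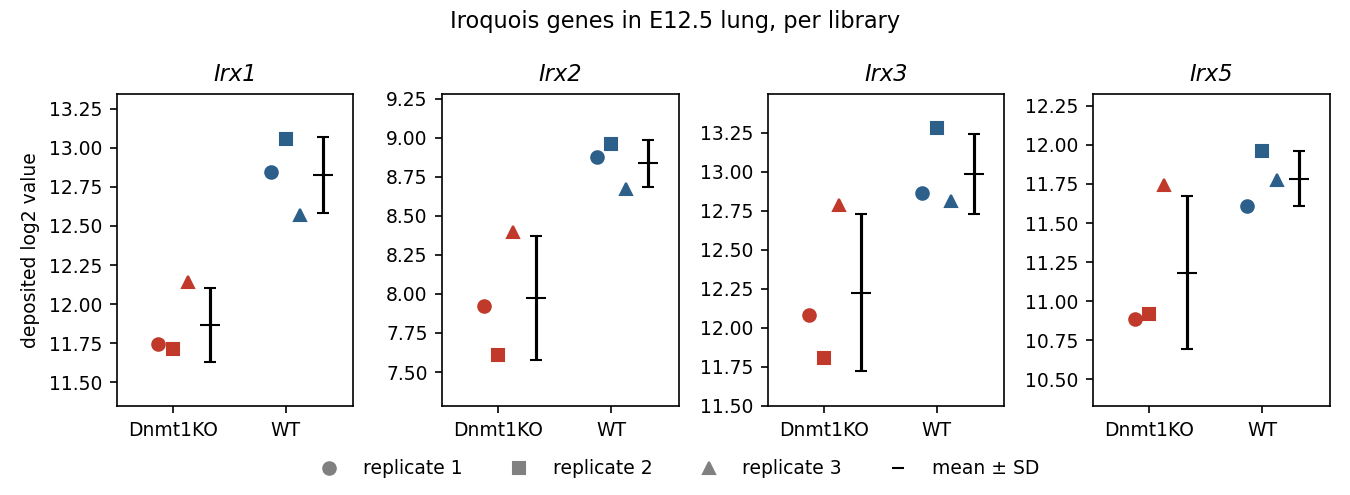
Deposited log2 value of Irx1, Irx2, Irx3 and Irx5 in each library, Dnmt1KO on the left and WT on the right of each panel, with mean ± SD (n = 3 each) beside the points and all panels spanning the same range. Dnmt1KO replicate 3 is the highest of its group in every panel and reaches the WT range for Irx5.

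None of the 4 genes passed the test over all genes, in limma on the deposited values or in voom on the recovered reads, and all 4 had a negative fold change at an unadjusted p under 0.05 in both. Over all genes limma called 1 gene lower, 0.00706% of those tested, namely the Hedgehog receptor gene Ptch1 (-0.63 ± 0.08 SE, adjusted p = 0.0258), which was named after its values were seen, and 0.29% were called in either direction. In 1.6% of genes the fold change was negative at an unadjusted p under 0.05. A negative fold change was found in 50% of all genes. Dnmt1KO lay below WT without overlap in 3 of the 4 Iroquois genes, against 3.99% of all genes, and groups failed to overlap in either direction for 8.78%. A fold change as low as that of Irx1 or lower was seen in 0.261% of all genes, and the shares were 0.339% for Irx2, 0.48% for Irx3 and 0.819% for Irx5. The median log2 fold change was -0.91 for Irx1 and Irx2 and -0.68 for Irx3 and Irx5.

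The Dnmt1KO libraries differed among themselves, and replicate 3 was the highest of them for every member measured. Relative to the WT mean, Irx1 stood at -1.08, -1.11 and -0.68 in replicates 1, 2 and 3, and Irx2 at -0.91, -1.23 and -0.44. Irx3 stood at -0.90, -1.17 and -0.20, and Irx5 at -0.90, -0.87 and -0.04. Replicate 3 was thus the nearest to WT for each gene, and more so for Irx3 and Irx5 than for Irx1 and Irx2. Dnmt1 itself had another order, with log2 values of 15.57, 15.40 and 15.31 in Dnmt1KO replicates 1, 2 and 3, lowest in replicate 3. Without Dnmt1KO replicate 3, limma called Irx1 (-1.09 ± 0.14 SE, adjusted p = 0.022), Irx3 (-1.04 ± 0.16, 0.048) and Irx5 (-0.88 ± 0.13, 0.0391). Irx2 (-1.07 ± 0.25, 0.212) still did not pass. Since replicate 3 was nearest to WT for each of these genes, leaving it out was bound to enlarge their fold changes. The same holds below for Crnde, Foxa1, Shh, Cebpa and Celsr1. With sample weights, where 0.0847% of all genes were called lower, Irx1 passed too (-0.94 ± 0.14, 0.0313). In the fit without replicate 3, 0.12% of all genes were called lower, and groups did not overlap in the lower direction for 9.79% of all genes. Without Dnmt1KO replicate 2 the log2 fold changes were nearer 0, at -0.88, -0.68, -0.55 and -0.47 for Irx1, Irx2, Irx3 and Irx5. Without Dnmt1KO replicate 1, which held 3 reads over 4 genes of the Y chromosome while every other library held at least 4155, they were -0.90, -0.84, -0.69 and -0.45.

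**Figure D2:**
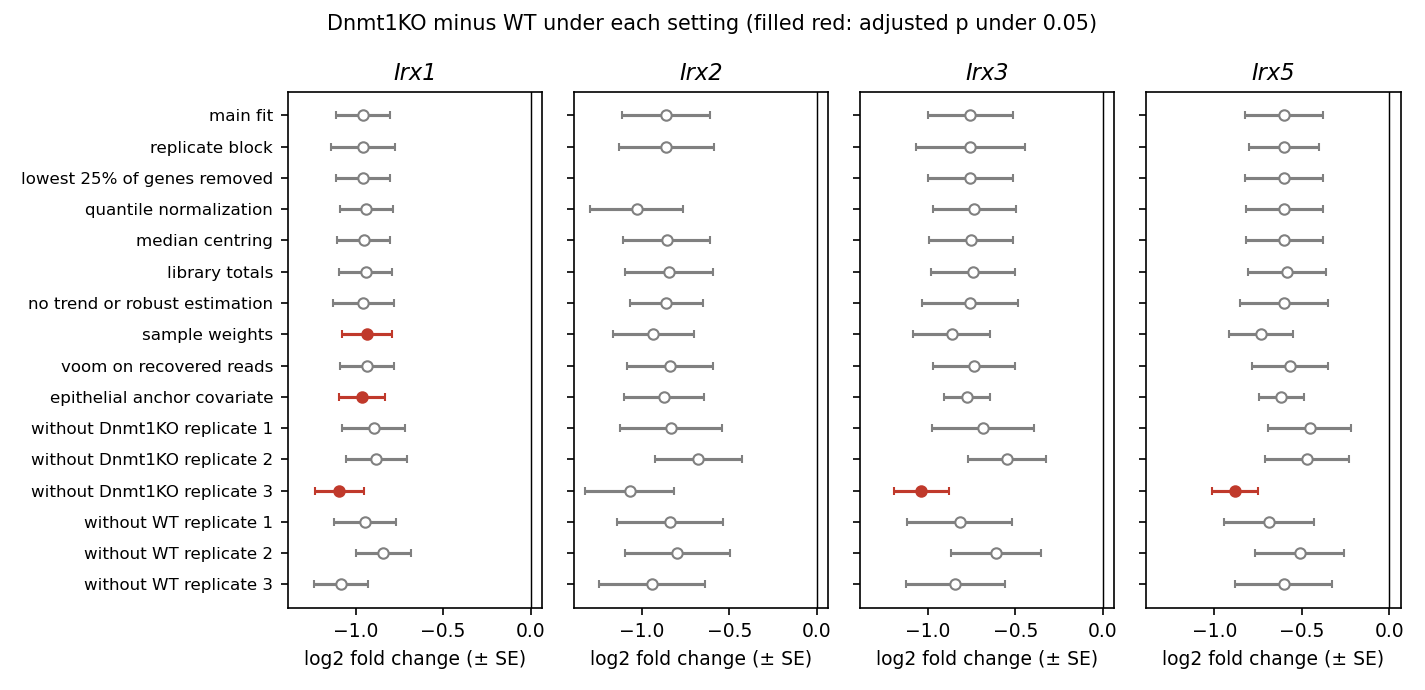
Log2 fold change (Dnmt1KO minus WT, ± SE) of each Iroquois gene in the fit with genotype alone and under each alternative, with filled red points where the adjusted p was under 0.05 and no point where the gene was not in the fit. Every value is negative. Irx1 passes in 3 alternatives, Irx3 and Irx5 in the fit without Dnmt1KO replicate 3, and Irx2 in none.

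Over the 6 libraries Pearson's r was 0.967 between the cluster mates Irx1 and Irx2 and 0.964 between Irx3 and Irx5. Among the 14161 other genes Irx2 ranked 10 by r to Irx1, and Irx5 ranked 14 by r to Irx3. Across clusters r ran from 0.86, between Irx1 and Irx5 (rank 212), to 0.965, between Irx2 and Irx3 (rank 14). Taken as deviations from each group's mean, so that the genotype difference drops out, r ran from 0.763 to 0.952 over the 6 pairs. Within Dnmt1KO alone r ran from 0.902 to 0.995. Within WT alone it ran from 0.303 (Irx2 and Irx5) to 0.987 (Irx1 and Irx2), each on 3 libraries. For Irx2, Irx3 and Irx5 the spread behind these values was wider among the Dnmt1KO libraries (SD 0.40, 0.50 and 0.49), with replicate 3 the highest, than among the WT libraries (SD 0.15, 0.26 and 0.18). Among the WT libraries Irx1, Irx2 and Irx3 were lowest in replicate 3, but Irx5 was lowest in replicate 1. All of these are descriptions over 6 libraries, in which all genes share the depth and scaling of a library.

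Per length, the order of mean levels was the same in both groups. RPKM values, which are reads per kilobase of exon scaled to the library total (exon lengths of GENCODE M21), were highest for Irx3, at 17.8 ± 6.51 across Dnmt1KO libraries and 28.8 ± 4.99 across WT libraries (SD, 3 per group). Irx1 followed at 14.1 ± 2.42 RPKM in Dnmt1KO and 27.1 ± 4.24 RPKM in WT. Within libraries, Irx1 over Irx3 per kilobase was 0.84, 0.99 and 0.67 in Dnmt1KO, against 1.04, 0.90 and 0.89 in WT. Irx3 was thus not the higher of these genes in every library. Irx5, lower than Irx1 in every library, came next at 5.94 to 10.8 RPKM in Dnmt1KO and 9.74 to 12.2 RPKM in WT, and Irx2 last at 0.765 ± 0.215 RPKM in Dnmt1KO and 1.35 ± 0.126 RPKM in WT.

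The balance between cluster mates overlapped between the groups. Irx1 exceeded Irx2 per kilobase 17.9-, 21.8- and 16.9-fold in Dnmt1KO libraries, against 19.7-, 21.5- and 18.8-fold in WT libraries, with overlapping ranges. Irx3 exceeded Irx5 by 2.60-, 2.10- and 2.33-fold in Dnmt1KO, against 2.70-, 2.82- and 2.32-fold in WT, also with overlap. Irx1 and Irx2 together made up 38.9%, 41.1% and 33.3% of the RPKM of the 4 genes in Dnmt1KO, against 44.4%, 41.1% and 39.6% in WT. The sum over the 4 genes was 35.0, 31.9 and 53.8 RPKM in Dnmt1KO, against 64.9, 79.4 and 60.4 RPKM in WT.

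No gene flanking the clusters was called. Over all genes 0.29% were called, 640 of 14162 had an unadjusted p under 0.05 in limma, and 3.99% lay below WT without overlap. For so few flanking genes, finding none is near these shares and does not set them apart. By the gene order of GENCODE M21, 16 of the 20 protein-coding genes that flank the Irx1/2/4 cluster, 10 on each side, were in the tables. None of the 16 passed limma's test or reached an unadjusted p under 0.05, none lay below WT without overlap, and their log2 fold changes ran from -0.24 to 0.17 with a median of -0.064. The nearest were Adamts16, a secreted metalloprotease gene, beside Irx1 (0.17 ± 0.89 SE, few reads) and Ndufs6, a subunit of respiratory complex I, beyond Irx4 (-0.094 ± 0.16). Mrpl36 (-0.096 ± 0.16), of the mitochondrial ribosome, and Ice1 (-0.072 ± 0.11), of the little elongation complex, came next.

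Around the Irx3/5/6 cluster 14 of 20 flanking genes were in the tables, and again none passed the test or reached an unadjusted p under 0.05. Their median log2 fold change was 0.0092. Fto, an RNA demethylase gene whose introns hold regulatory elements of Irx3 in other tissues, borders the cluster and averaged 13.94 ± 0.14 for Dnmt1KO and 13.95 ± 0.06 for WT (log2 values, SD, 3 libraries per group), a difference of -0.005 ± 0.091 (SE). Rpgrip1l, a gene of the ciliary transition zone, differed by 0.062 ± 0.13, and Mmp2, the matrix metalloprotease gene on the other side, by 0.0085 ± 0.12. The lowest values were those of the noradrenaline transporter gene Slc6a2 (-0.66 ± 0.51, on 10 to 37 reads) and of the carboxylesterase genes Ces1d (-0.58 ± 0.29) and Ces1f (-0.56 ± 0.31). The carboxylesterases belong to a tandem family of close copies, so the division of reads between them is uncertain.

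One non-coding gene inside the clusters was measured, Crnde, which lies next to Irx5 and is transcribed away from it. Its read numbers were 99, 98 and 253 for Dnmt1KO, against 256, 249 and 286 for WT. Its log2 values averaged 9.45 ± 0.71 for Dnmt1KO and 10.20 ± 0.17 for WT (SD, 3 libraries per group). Replicates 1 and 2 of Dnmt1KO were low and replicate 3, 0.06 above the WT mean, lay within the WT range, as it did for Irx5. Its difference was -0.75 ± 0.32 (SE) with an adjusted p of 1 in limma, and without Dnmt1KO replicate 3 it was -1.16 ± 0.18 (adjusted p = 0.048).

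**Figure D3:**
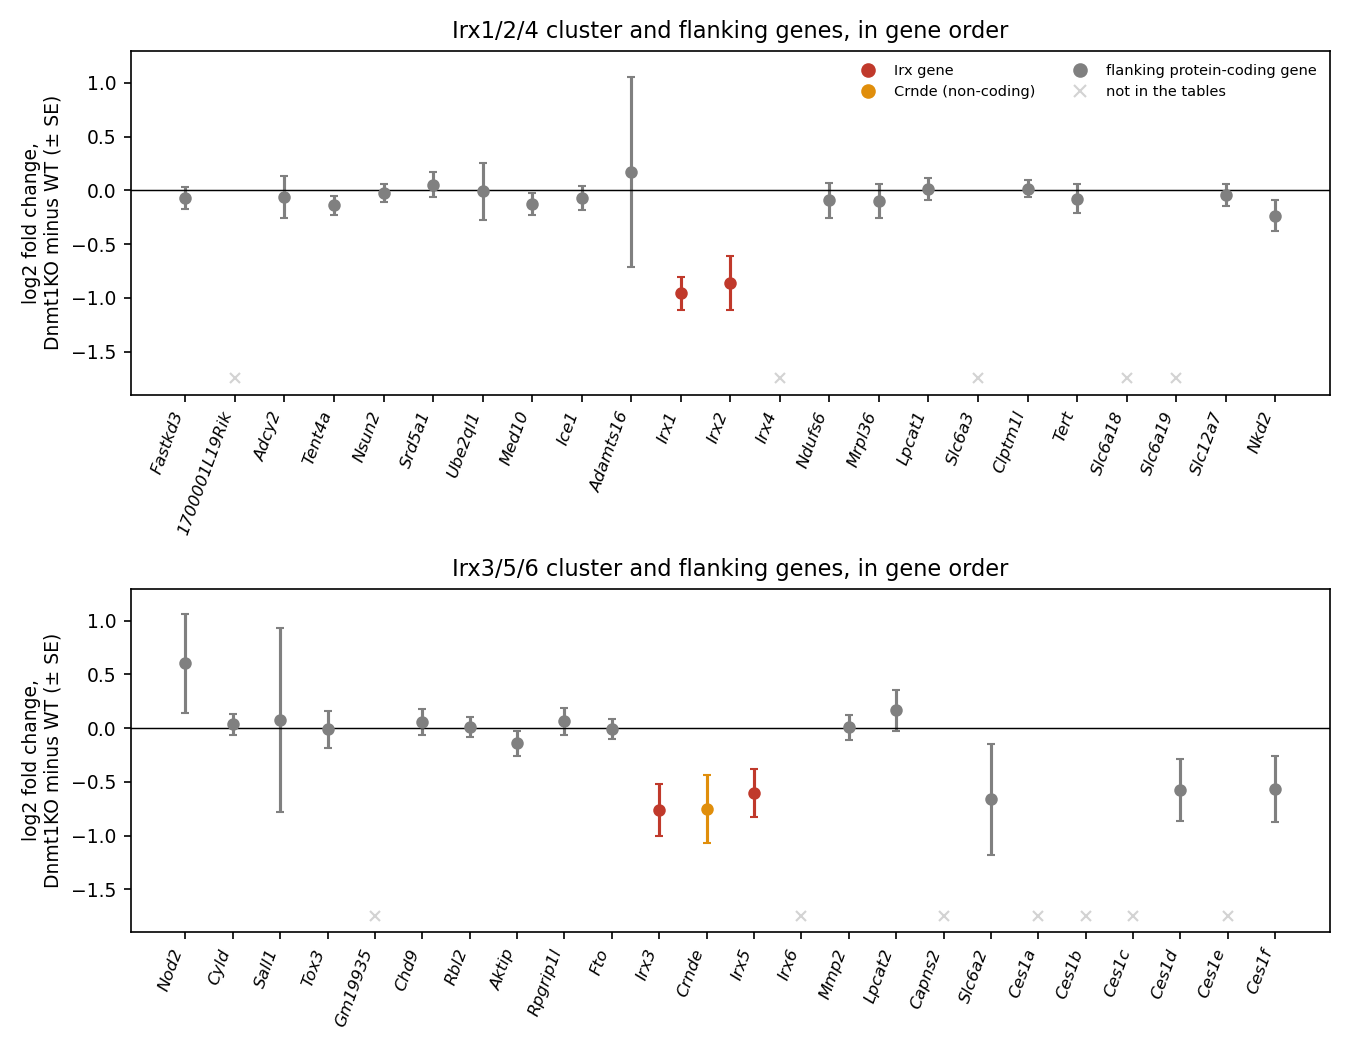
Log2 fold change (Dnmt1KO minus WT, ± SE of limma) of each gene in the order of GENCODE M21, for the Irx1/2/4 cluster above and the Irx3/5/6 cluster below, with genes that are not in the tables as crosses at the foot. The 4 Iroquois genes and Crnde lie between -0.96 and -0.60, and the flanking genes lie between -0.24 and 0.17 above and between -0.66 and 0.60 below, where Slc6a2 (-0.66), Ces1d (-0.58) and Ces1f (-0.56) are in or next to the Iroquois range.

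The sequence before the start of Irx2 is shown because Irx2 was lower without overlap and because Dnmt1 acts on CpG dinucleotides, which are in capitals. It is the 250 bases at chr13:72628570-72628819 on the plus strand of GRCm38.p6, from RefSeq, in which GENCODE M21 has no exon. The matching 250 bases before Crnde, at chr8:92356121-92356370 on the minus strand, are shown for the other cluster. Crnde lies next to Irx5 but is a separate gene, and its window is not that of Irx5. For Irx1 and Irx5 no window was available, so their CpG were not counted. The RefSeq table also gave windows for Irx3 and Irx4, which are not printed because each holds part of an annotated exon of its own gene.
Irx2 upstream: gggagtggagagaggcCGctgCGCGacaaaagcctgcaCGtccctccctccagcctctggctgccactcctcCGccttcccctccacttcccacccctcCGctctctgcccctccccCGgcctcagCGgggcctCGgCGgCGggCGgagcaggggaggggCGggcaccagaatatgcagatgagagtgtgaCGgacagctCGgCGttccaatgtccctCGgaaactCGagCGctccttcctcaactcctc
Crnde upstream: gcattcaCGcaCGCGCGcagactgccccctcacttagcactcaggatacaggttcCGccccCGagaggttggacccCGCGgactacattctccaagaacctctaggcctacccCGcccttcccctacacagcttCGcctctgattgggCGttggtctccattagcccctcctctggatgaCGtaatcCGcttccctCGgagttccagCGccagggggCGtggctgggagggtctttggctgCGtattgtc

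The Irx2 stretch held 19 CpG and the Crnde stretch 17. The Irx4 window held 22 CpG and the Irx3 window 13, both counted over stretches that are partly exon in GENCODE M21. The searched letters were CG, which read the same on both strands. At least 1 CpG was present in 92.1% of the 32851 stretches of this length in the table, and the median was 6. As many as in Irx2 or more were found in 19.7% of all stretches, as many as in Crnde or more in 23.5%, and as many as in Irx3 or more in 31.5%. No methylation was measured in these libraries.

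Each library was whole lung, and in bulk RNA fewer cells of a type and less RNA per cell cannot be told apart. Of 26 genes on a list of lung epithelium, all 26 were measured, none passed limma's test, 14 had a negative fold change and the median was -0.088. Their summed level was 1100 to 1560 CPM (reads scaled to the library total) in Dnmt1KO and 1209 to 1443 in WT. None was at 0 in any library. Of the 26 genes, 4 were lower at an unadjusted p under 0.05 in limma, against 1.6% of all genes, and 2 were higher. Below WT without overlap lay 4, against 3.99% of all genes, and 2 lay above. The 5 anchor genes named next are a part of this list and do not stand for all of it. The mean log2 value of 5 anchor genes, Epcam, Cdh1, Krt8, Krt18 and Cldn6, which build the junctions and filaments of epithelial cells, was 13.21 ± 0.31 for Dnmt1KO and 13.20 ± 0.21 for WT (SD, 3 libraries per group). It was 13.18, 12.92 and 13.54 in Dnmt1KO replicates 1, 2 and 3, against 12.96, 13.35 and 13.28 in WT, so that Dnmt1KO replicate 3 had the highest epithelial level of all libraries.

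Relative to these anchors the groups separated for all 4 members. Irx1 minus the anchor mean was -1.43, -1.21 and -1.40 in Dnmt1KO, against -0.12, -0.30 and -0.71 in WT (log2). Irx3 stood at -1.10, -1.11 and -0.75 in Dnmt1KO, against -0.10, -0.07 and -0.47 in WT, and Irx5 at -2.29, -2.01 and -1.79 in Dnmt1KO, against -1.36, -1.39 and -1.51 in WT. For Irx2 the values were -5.25, -5.32 and -5.14 in Dnmt1KO, against -4.09, -4.39 and -4.61 in WT. A separation of this kind in the lower direction was found in 1.13% of all genes. It was not particular to the Iroquois genes, since Nkx2-1, Foxa1 and Shh, described below, separated too. Nkx2-1 stood at 0.64, 0.55 and 0.55 in Dnmt1KO, against 1.08, 0.88 and 0.80 in WT. With the anchor mean as a covariate in limma, the log2 fold changes were -0.96 ± 0.13 for Irx1 (SE, adjusted p = 0.0241), -0.87 ± 0.23 for Irx2 (0.253), -0.78 ± 0.13 for Irx3 (0.0554) and -0.62 ± 0.13 for Irx5 (0.117). The standard error of Irx3 was 0.13 in this fit and 0.24 without the covariate, and for Irx5 it was 0.13 and 0.22. In it 0.127% of all genes were called lower.

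**Figure D4:**
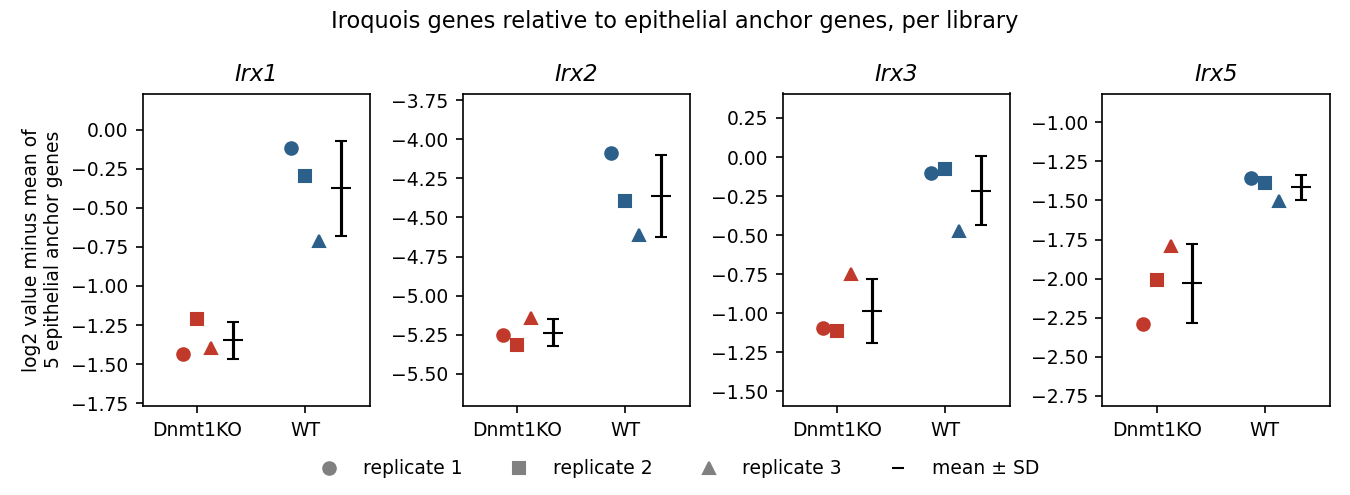
Log2 value of each Iroquois gene minus the mean log2 value of the 5 epithelial anchor genes in the same library, Dnmt1KO on the left and WT on the right, with mean ± SD (n = 3 each). The groups do not overlap in any panel, and the highest Dnmt1KO value of Irx5, -1.79, lies below the lowest WT value, -1.51.

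Among 26 measured transcription factor genes of the lung epithelium, on a list of 27, none passed limma's test, where 0.29% of all genes were called. The log2 fold changes ran from -1.51 to 2.08 with a median of 0.092. At an unadjusted p under 0.05 in limma 3 were lower and 5 higher, against 640 of 14162 genes in either direction. Without overlap 2 lay below WT and 3 above, against 8.78% of all genes in either direction. Nkx2-1, the lung lineage factor, averaged 13.80 ± 0.31 for Dnmt1KO and 14.12 ± 0.10 for WT (SD, 3 libraries per group), with overlap. Foxa1, a pioneer factor of endoderm, was read 318, 355 and 884 times in the Dnmt1KO libraries and 1576, 1498 and 1513 times in the WT libraries, a log2 fold change of -1.51 ± 0.32 (SE, adjusted p = 0.223). From the epithelium list, the Hedgehog ligand gene Shh was read 361, 608 and 777 times in the Dnmt1KO libraries and 1191, 1273 and 1325 times in the WT libraries (-0.98 ± 0.22, adjusted p = 0.213). Dnmt1KO replicate 3 was again nearest to WT for both genes. Without it Foxa1 passed (-1.93 ± 0.11, adjusted p = 0.00067) and Shh did not (-1.18 ± 0.20, 0.0856), and with the anchor covariate Foxa1 passed too (-1.53 ± 0.21, 0.0477). The inhibitor of differentiation Id2 (0.56 ± 0.10, adjusted p = 0.0879) and Cebpa (0.96 ± 0.22, 0.246) were above WT without overlap and did not pass, though Id2 passed with the anchor covariate (0.56 ± 0.10, 0.0477) and Cebpa without Dnmt1KO replicate 3 (1.18 ± 0.18, 0.0472). Past no threshold with genotype alone, but above WT without overlap, was also the surfactant gene Sftpc (1.58 ± 0.25, 0.0585), which passed with sample weights (1.70 ± 0.25, 0.0454) and without WT replicate 2 (1.80 ± 0.24, 0.0403). The splicing regulator gene Esrp2 (-0.53 ± 0.13, 0.306) was below WT without overlap.

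**Figure D5:**
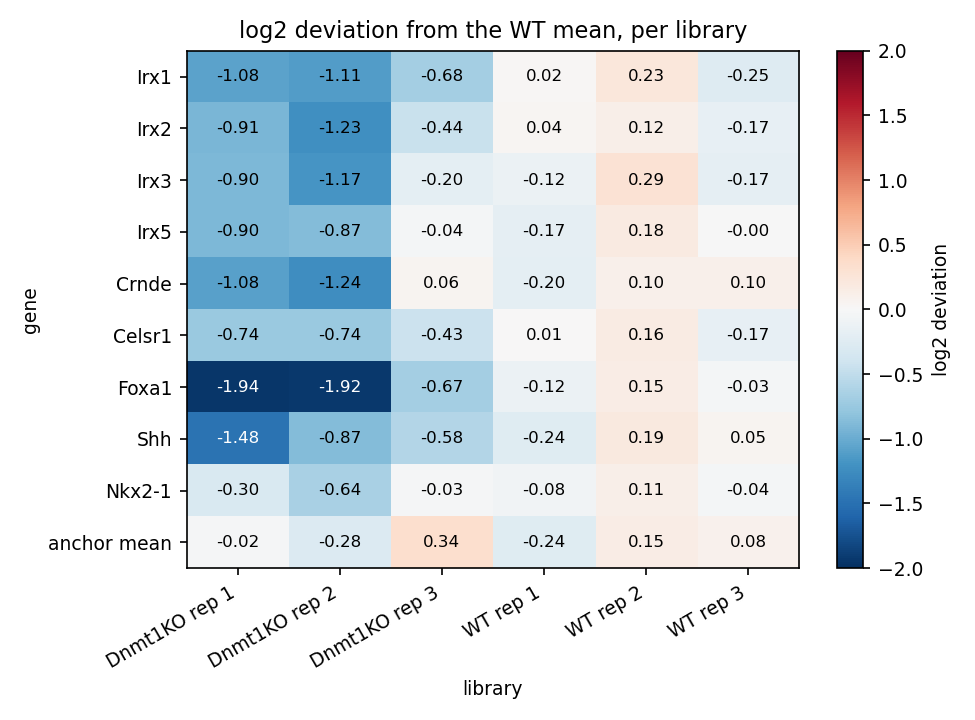
Log2 deviation from the WT mean in each library, Dnmt1KO on the left and WT on the right, for the 4 Iroquois genes, Crnde, Celsr1, Foxa1, Shh, Nkx2-1 and the mean of the 5 epithelial anchor genes. The Iroquois genes, Crnde, Celsr1, Foxa1, Shh and Nkx2-1 are all nearest to WT in Dnmt1KO replicate 3, where the anchor mean is 0.34 above WT.

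The other homeobox genes of the TALE class, whose products include the Hox cofactors of the Meis and Pbx families, had no member called. Over all genes 0.29% were called and 640 of 14162 reached an unadjusted p under 0.05 in limma, so none among 12 is near those shares. All 12 on the list were measured, none passed limma's test or reached an unadjusted p under 0.05, 7 had a negative fold change and the median was -0.021. The smallest p belonged to Meis3 (0.097 ± 0.10 SE), Pbx3 (-0.096 ± 0.10) and Tgif2 (-0.11 ± 0.12). Their summed level was 1439 to 1605 CPM in Dnmt1KO and 1387 to 1604 in WT.

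Markers of other cell types showed no call either, where 0.29% of all genes were called. Of the lung mesenchyme list all 22 genes were measured, 11 had a negative fold change, the log2 fold changes ran from -0.42 to 0.71 and the summed level was 7604 to 8631 CPM in Dnmt1KO and 7269 to 8482 in WT. Foxf1, a mesenchymal Hedgehog target, had the smallest p of that list (-0.38 ± 0.09 SE, adjusted p = 0.261). The medians were 0.027 for 13 endothelial genes (777 to 1020 CPM in Dnmt1KO, 643 to 969 CPM in WT), 0.06 for 9 of 10 mesothelial genes (501 to 781 CPM in Dnmt1KO, 504 to 709 CPM in WT) and -0.054 for 10 neural genes (120 to 177 CPM in Dnmt1KO, 114 to 205 CPM in WT). For 8 of 10 cartilage genes the median was -0.011 (286 to 402 CPM in Dnmt1KO, 313 to 505 CPM in WT). Matn1, a cartilage matrix gene, was read 42, 26 and 10 times in the Dnmt1KO libraries and 0, 1 and 2 times in the WT libraries, and was the one measured marker of these lists with 0 reads in any library. The 15 erythroid genes measured were all higher on average in Dnmt1KO, none past the test, and summed to 2150 to 3728 CPM in Dnmt1KO and 1608 to 2314 in WT. Of 12 measured cardiac muscle genes, on a list of 16, 11 had a positive fold change, and their sum was 78.7, 629 and 158 CPM in Dnmt1KO, against 157, 86.0 and 94.3 in WT. Cardiac transcripts were thus highest in Dnmt1KO replicate 2, where Irx1, Irx2 and Irx3 were lowest. The part of these other cells in the Iroquois values was not tested.

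The genes whose values followed each member most closely over the 6 libraries were searched among 7054 named genes at or above the median level. For Irx1 these were Celsr1 (Pearson's r = 0.999), Prpsap1 (0.98), Hnrnpl (0.976), Mapkapk2 (0.968) and Ess2 (0.962). Celsr1, a cadherin of planar cell polarity, was read 1618, 1787 and 2316 times in the Dnmt1KO libraries and 3791, 3342 and 3047 times in the WT libraries (-0.64 ± 0.12 SE on the log2 scale, adjusted p = 0.113 in limma). For Irx2 they were Usp3 (0.992), Cplx2 (0.983), Fgfr3 (0.979), Pus1 (0.978) and Gtf3c5 (0.972). Of these the FGF receptor gene Fgfr3 (-0.55 ± 0.11, adjusted p = 0.156) and the complexin gene Cplx2 (-0.41 ± 0.13, 0.607) had the larger differences.

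For Irx3 the nearest were Sart3 (0.989), Pus1 (0.987), Pacsin3 (0.981), Arhgef19 (0.975) and Gtf3c5 (0.968), and for Irx5 Ctu2 (0.991), Enoph1 (0.987), Ring1 (0.982), Eif2b2 (0.982) and Gpsm2 (0.98). Apart from Arhgef19 (-0.44 ± 0.15) and Pacsin3 (-0.27 ± 0.11), these had log2 fold changes between -0.22 and -0.062, far smaller than those of the Iroquois genes. A high r here says that the libraries stand in like proportion, not that the changes were of like size, and each was picked as the highest of 7054 genes over 6 libraries. No gene named in this search passed limma's test with genotype alone. Celsr1 passed without Dnmt1KO replicate 3 (-0.74 ± 0.11, adjusted p = 0.0393) and with the anchor covariate (-0.64 ± 0.10, 0.0321).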

How the data were processed

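RNA-seq of whole E12.5 mouse lung gave 3 Dnmt1KO and 3 WT libraries, grouped by the sample titles. Each library has 1 deposited table of Ensembl identifiers and a value column headed SIGNAL. The deposited values were taken as log2 expression, judged from their range and steps. The submitters' processing notes name STAR, limma and the build mm9. The counter, annotation, filter and scaling were not given in the sources used here. Raising 2 to each value gave a whole number of reads plus 0.5, times a constant of the library, for 100% of 14162 genes (tolerance 1e-06 reads). The lowest gene total was 60 reads.

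Symbols, exon lengths and gene order came from GENCODE M21 (GRCm38), which named 13967 identifiers. Its coordinates and those of RefSeq belong to GRCm38, not mm9, and only sequences and gene order were taken by them. limma 3.58.1 (R 4.3.3, trend and robust moderation) was fitted to the deposited log2 values of all genes with genotype as the only term, with Benjamini-Hochberg adjustment at 0.05, and tested on simulated data. Named were the members, Dnmt1, up to 3 genes per list by p, flanking genes within 10 of a cluster, and 5 genes per member by Pearson's r. Nkx2-1, Ptch1 and the anchor genes were named outside that rule. Homeoboxes were located by translating the longest coding sequence and matching a residue pattern of the recognition helix. The members, lists and tests were chosen with earlier results of these data known. The alternatives changed the filter (the lowest 25% of genes by mean taken out), the scaling (quantile, median or library total), the moderation (neither trend nor robust), or the model (replicate number as a block, sample weights, voom on recovered reads, epithelial anchor mean as a covariate), or left out a library. The comparison of values minus the anchor mean and the share without overlap after removal of Dnmt1KO replicate 3 were chosen after seeing the data. Intervals of fold changes are limma's. The counting errors cover counting only.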

Additional observations from a re-analysis of the deposited data

How the results depend on the processing

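All 4 Iroquois genes kept a negative fold change in every alternative that could be fitted, 15 each for Irx1, Irx3 and Irx5 and 14 for Irx2, which was among the 25% of genes removed as lowest. No fit was run for Irx4 and Irx6. Leaving out single libraries gave log2 fold changes of -1.09 to -0.84 for Irx1 (limma adjusted p 0.022 to 0.313), -1.07 to -0.68 for Irx2 (0.212 to 1), -1.04 to -0.55 for Irx3 (0.048 to 1) and -0.88 to -0.45 for Irx5 (0.0391 to 1), and 0 to 3 members called lower. The 3 were Irx1, Irx3 and Irx5 without Dnmt1KO replicate 3. Irx1 also passed with sample weights (-0.94, adjusted p = 0.0313) and with the epithelial anchor covariate (-0.96, 0.0241), 1 member each. No member passed without the lowest 25% of genes (Irx1 -0.96, adjusted p = 0.281) or without trend and robust estimation (Irx1 -0.96, 0.199). With the replicate number as a block no member passed either (Irx1 -0.96, adjusted p = 0.265). The replicate numbers are not said to pair the samples, so they were not taken as pairs. The deviations of same-numbered libraries correlated at -0.0027, -0.18 and 0.306 for numbers 1, 2 and 3. The highest value was 0.379, between Dnmt1KO replicate 2 and WT replicate 1. Deviations within a group depend on each other, so these correlations cannot decide whether libraries were paired. Over all genes the 40 called higher became 26 with the replicate block, 24 with voom, 66 with the anchor covariate, 0 without the lowest 25% of genes and 15 to 42 with single libraries left out. The 1 gene called lower became 0 with the block, without the lowest 25% of genes or without trend and robust estimation, 12 with sample weights, 18 with the anchor covariate and 0 to 17 with single libraries left out. Apart from removed genes or libraries the cause was not tested. With 38 to 117 reads per library, Irx2 has the widest counting error of the 4 genes.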
